A study of Drosophila sechellia and Drosophila simulans with 8 samples.

Results

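Female bodies of Drosophila sechellia and Drosophila simulans were compared in their gene expression under the condition labelled no choice. All arrays titled as no choice were taken, which gave 4 of the 8 arrays of the study, 2 for each species, and all 18769 probe sets other than the manufacturer's controls were tested. The study set these 2 species against 2 conditions, choice and no choice, toward a mixture of hexanoic and octanoic acid. Both groups were reared at 25 °C on agar, yeast and cornmeal, neither carries a labelled transgene or treatment beyond the condition, and no source used here gives the strains, the ages or the number of flies behind an array. The question the design poses here is how females of the species differ where the acids offered no choice.

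D. sechellia is a specialist that feeds and lays eggs on the fruit of Morinda citrifolia, whose octanoic and hexanoic acids repel or poison its relatives, and D. simulans is a generalist on many fruits. A female body holds the midgut, which secretes proteases, lipases and glucosidases into the food; the fat body and oenocytes, which store lipid and make the hydrocarbons of the cuticle; and the ovary, whose follicle cells build the vitelline membrane and then the chorion around each egg. Females of D. sechellia are known to have fewer ovarioles than those of D. simulans.

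The unit is the probe-set signal that the authors deposited, an intensity in which the trimmed mean of each array is 500. A difference is the mean log2 signal in sechellia minus that in simulans, printed with its standard error (SE) from 2 arrays per species, and a gene is called where the limma p adjusted by Benjamini-Hochberg over all 18769 probe sets is below 0.05. The arrays carry probes designed for D. melanogaster, so a base difference under a probe and a difference in RNA cannot be told apart. Gene symbols and roles are likewise those of D. melanogaster. In whole bodies, fewer cells of a type and less RNA per cell cannot be told apart either. The labels only number the arrays of a group, so the p-values reflect array-to-array spread that may be only technical.

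The 4 arrays were alike in quality. Median signals ran from 110.7 to 119.3, and the ratio of the 3′ to the 5′ probe set of GAPDH ran from 0.88 to 1.03. Across probe sets the arrays of a species correlated at Pearson r 0.949 in sechellia and 0.953 in simulans, and arrays of different species at 0.922 to 0.927. The 27 control probe sets for Bacillus, bacterial sequences added as controls, had medians of 12.3 to 21.5, taken as background. The bodies carried female markers: the yolk protein gene Yp1 read 19936.7 to 26238.8 over the 4 arrays, while the 20 measured markers of the male reproductive tract summed to 1434 to 1757. One array outside the comparison, array 1 of sechellia choice, stood apart from all others, with r of 0.756 to 0.780 and a control median of 126.4, and counts that use it are given with and without it.

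Of 18769 probe sets, 3095 (16.5%) were called, 1611 higher and 1484 lower in sechellia. Centring each array on its median, which shifts all differences down by the overall median of 0.08, gave 1275 higher and 1777 lower, so the balance of the directions depends on the scaling. Taking each gene by its brightest probe set, 2532 of 11982 genes (21.1%) were called, 1304 higher (10.9%) and 1228 lower (10.2%), with a median difference over all genes of 0.04. Large differences ran more often downward: 349 called genes were at least 2-fold higher and 461 at least 2-fold lower, and 10 were at least 16-fold higher against 32 lower. The number of calls rests on the estimate of the spread. With the spread taken over all 8 arrays, the odd one included, 508 probe sets and 437 genes (3.65%) were called, and over the 7 arrays without it 3512 and 2845 (23.7%). Without the dependence of the spread on signal none was called although 4239 had an unadjusted p below 0.05, and with 1 array left out between 1754 and 1975 were called. Genes named as called below kept their call in each of the 4 fits without 1 array unless this is said beside them.

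**Figure D1:**
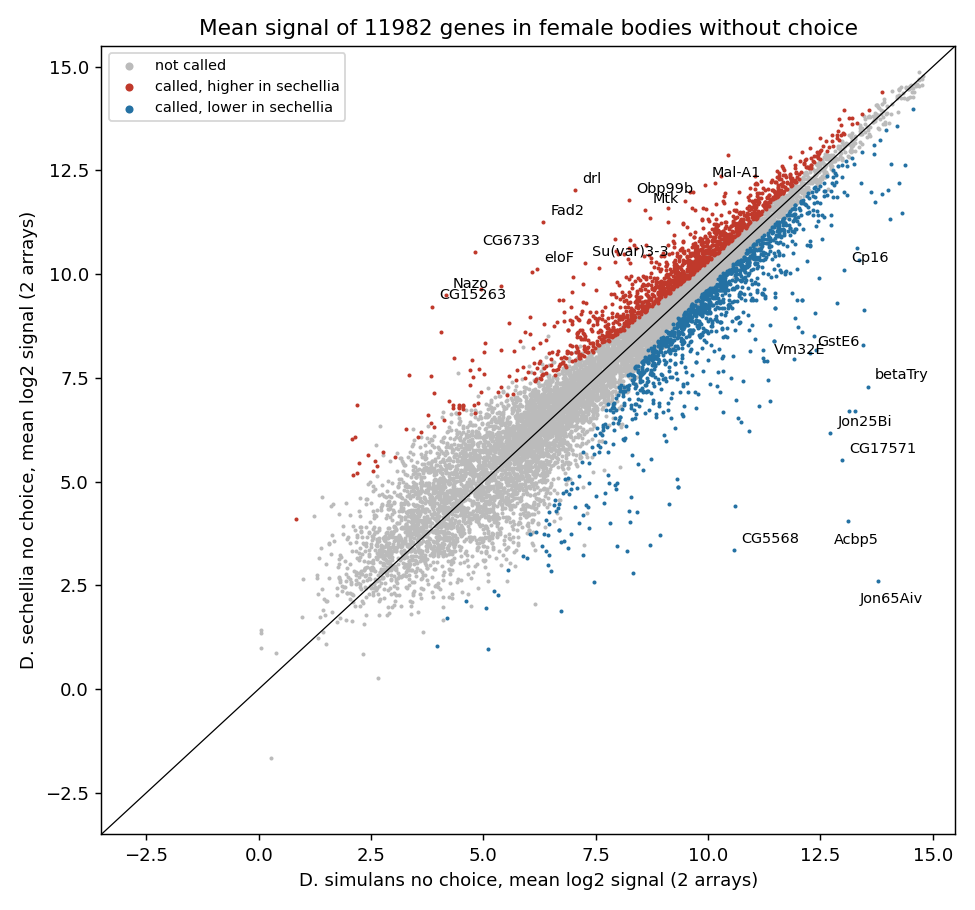
Each point is 1 gene, by its mean log2 signal on the 2 simulans no choice arrays (horizontal) and on the 2 sechellia no choice arrays (vertical); red genes were called higher and blue genes lower in sechellia, and the line marks equal signal. The genes farthest from the line lie below it, from Jon65Aiv and Acbp5 to betaTry.

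The proteins that digest food protein gave the largest differences, and most were lower in sechellia. Jonah proteases and trypsins are serine proteases that midgut cells secrete. Of 22 measured, 14 were lower and 4 higher (81.8% called against 21.1% of all genes), with a median difference of -3.97. Jon65Aiv read 4.6 and 7.9 on the sechellia arrays and 13031 and 15083 on the simulans arrays. Both sechellia values lie below background, so the difference is a bound of at least 823-fold (log2 -11.18 ± 0.27, adjusted p = 2.9e-06). Jon25Biii read 109 and 101 in sechellia and 8964 and 9058 in simulans, a difference of log2 -6.43 ± 0.09, adjusted p = 5.7e-07. For betaTry the values were 150.0 and 163 in sechellia and 11462 and 12546 in simulans (log2 -6.26 ± 0.09, adjusted p = 5.7e-07). In these 3 genes no sechellia array passed 163.3, while the simulans signal was among the brightest of its arrays.

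Other members of the family ran from differences of the same size to differences the other way. Jon25Bi (62.2 and 83.1 in sechellia and 6683 and 6816 in simulans) and Jon74E (374 and 265 in sechellia and 10853 and 11574 in simulans) were also lower, at log2 differences of -6.55 and -5.15. epsilonTry read 68.3 and 161 in sechellia and 9364 and 10286 in simulans (log2 -6.55 ± 0.35, adjusted p = 6.7e-05), and its difference moves by more than 1.5-fold when either sechellia array is left out, as does that of Jon99Ci, a bound of at least 28.6-fold. Jon65Aiii was the mildest of the lower Jonah genes, with 2976 and 2553 in sechellia and 5869 and 6024 in simulans (log2 -1.11 ± 0.09, adjusted p = 0.00046). Among the 4 higher members, chosen for mention after their values were seen, lambdaTry was the brightest, at 7217 and 7784 in sechellia and 1445 and 1334 in simulans (log2 2.43 ± 0.08, adjusted p = 1e-05). The counts of 14 and 4 were the same under 3 other scalings (quantile, median centring and cyclic loess), and 14 were lower and 1 higher with the spread of 8 arrays, 16 and 4 with that of 7. Sequence similarity within the family means that 1 probe set may also read a related gene, which was not tested.

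**Figure D2:**
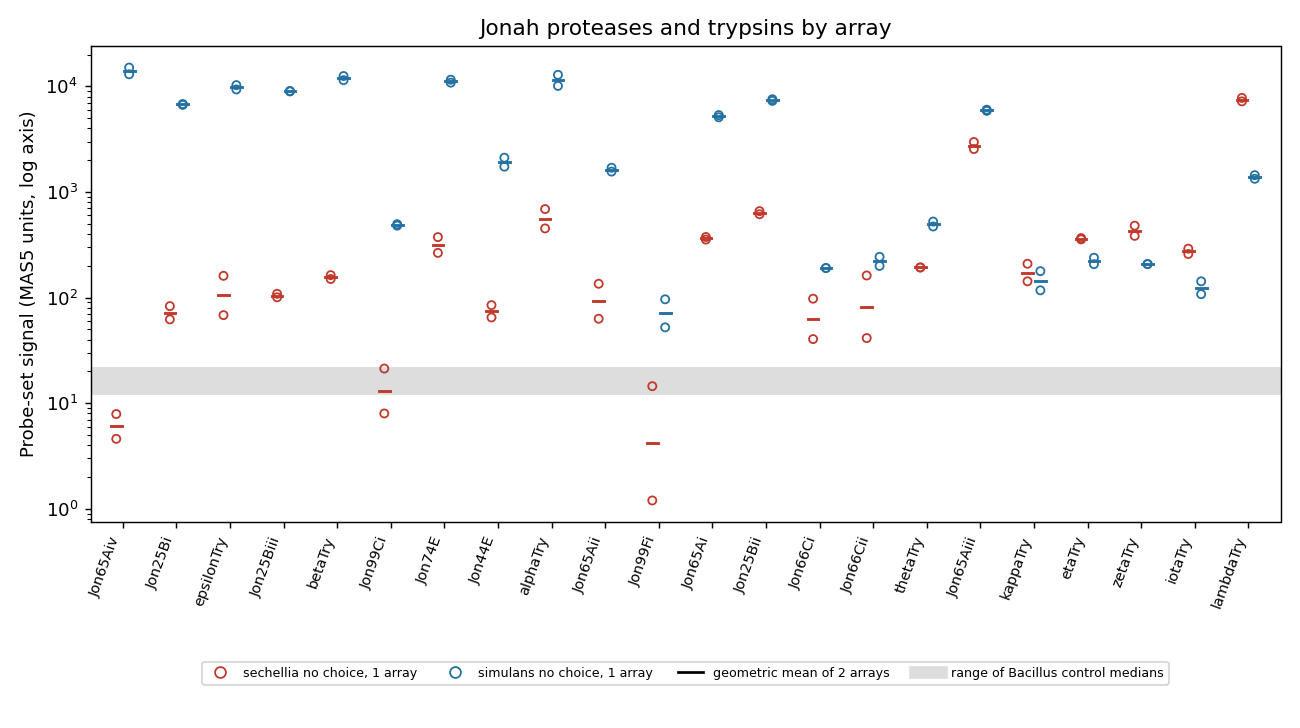
Probe-set signal on a log axis for the 22 Jonah proteases and trypsins, with 2 sechellia (red) and 2 simulans (blue) no choice arrays a gene, a bar at their geometric mean, and in grey the range of the Bacillus control medians, 12.3 to 21.5. Genes run from the most negative to the most positive difference: Jon65Aiv falls below the grey band in sechellia, and lambdaTry at the right end is higher there.

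Among the 12 largest decreases were 2 predicted proteases outside that list. CG17571, a trypsin-like gene, read 45.4 and 46.7 in sechellia and 9061 and 7104 in simulans (log2 -7.45 ± 0.14, adjusted p = 1.3e-06), and CG18180, another predicted serine protease, 17.2 and 26.5 in sechellia and 1555 and 1539.7 in simulans (log2 -6.18 ± 0.27, adjusted p = 3e-05). Acbp5 belongs to the acyl-CoA-binding proteins, small carriers of activated fatty acids. It read 17.8 and 15.6 in sechellia and 8612 and 9192 in simulans, a difference of log2 -9.06 ± 0.14, adjusted p = 5.7e-07 and the second largest of all. Its relatives did not share it: of 7 measured acyl-CoA-binding genes only Acbp5 was lower, Acbp3 was higher by 0.45 ± 0.07 and Acbp2, the brightest, read 7209.7 and 7647 in sechellia and 6236 and 6891 in simulans and was not called. CG5568, a gene for which no role is given here, was at 8.9 and 11.5 in sechellia and 1645 and 1398 in simulans, at least 89-fold lower in sechellia.

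Most called enzymes for dietary sugar ran against the proteases. Of 12 amylases, maltases and alpha-glucosidases, 6 were higher and 1 lower (58.3% called against 21.1% of all genes), with a median of 0.56. Mal-A3 and Mal-A7 encode maltases, which split disaccharides at the gut wall. Mal-A3 read 2537 and 2718 in sechellia and 470.3 and 369.6 in simulans (log2 2.66 ± 0.13, adjusted p = 4.3e-05), and Mal-A7 1771 and 1878 in sechellia and 311 and 305 in simulans (log2 2.57 ± 0.09, adjusted p = 1.6e-05). Mal-A1, from the same gene cluster, was higher by 2.23 ± 0.08, and tobi, an alpha-glucosidase gene that responds to insulin-like signals, by 2.27 ± 0.10. The exception among called genes was Mal-B1, at 119.5 and 63.1 in sechellia and 1708 and 1714 in simulans (log2 -4.30 ± 0.28, adjusted p = 0.00017). Mal-A6 and Mal-A8 had log2 differences of -2.70 and -2.19 but were not called. Mal-A1, Mal-A3 and Mal-A7 thus stood higher and Mal-B1 lower, with no overlap of arrays in any of them, while Mal-A5 read 1332 and 1354 in sechellia and 1529 and 1552 in simulans and was not called.

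Most calls among lipases and lysozymes were lower in sechellia. Of 16 predicted gut lipases, 5 were lower and 1 higher (37.5% called against 21.1% of all genes, median -0.42). CG6295 read 259.8 and 234 in sechellia and 3782 and 3937 in simulans (log2 -3.97 ± 0.09, adjusted p = 2.9e-06). magro, listed as mag, a lipase that digests dietary lipid and sterol esters, read 185 and 226 in sechellia and 1011 and 873 in simulans (log2 -2.20 ± 0.15, adjusted p = 0.00021). CG17192 lay below background in sechellia, at 7.0 and 7.0, against 329 and 312 in simulans, at least 18.8-fold lower. The 1 higher member was CG8093, at 839 and 589 in sechellia and 251.3 and 246 in simulans. Of 10 lysozymes, 3 were lower (30% called, median -0.56), among them LysS at 28.3 and 40.1 in sechellia and 612 and 662 in simulans (log2 -4.24 ± 0.28, adjusted p = 0.00018). LysX, also lower, lost its call without either simulans array. In the Niemann-Pick type C2 family, whose members bind sterols, Npc2d was higher, at 989 and 963 in sechellia and 133 and 122 in simulans (log2 2.94 ± 0.14, adjusted p = 3.7e-05), while the brightest member, Npc2a, read 2449.7 and 2374 in sechellia and 1932 and 2319 in simulans and was not called. The 11 measured midgut markers, most of them proteases, summed to 10029 and 10141 in sechellia against 61645 and 68328 in simulans, but 2 of them, Mal-A1 and mex1, a midgut gene that read 957 and 868 in sechellia and 476 and 515 in simulans, were higher in sechellia. Whether the amount of midgut tissue differed was not tested.

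The enzymes of cuticular hydrocarbon synthesis split. These hydrocarbons waterproof the fly and serve as contact pheromones; females of D. sechellia are known to carry long dienes, and those of D. simulans mainly monoenes. Of 20 genes, 5 were higher and 5 lower (50% called against 21.1% of all genes, median -0.13). Fad2, the female desaturase that places the second double bond, read 2563 and 2335 in sechellia and 100 and 65.1 in simulans (log2 4.92 ± 0.21, adjusted p = 2.9e-05). eloF, a female elongase of the diene pathway, read 1231 and 998 in sechellia and 54.5 and 99.1 in simulans (log2 3.92 ± 0.29, adjusted p = 0.0003). Desat2, another desaturase, was at 1431 and 1446 in sechellia and 269.5 and 241 in simulans (log2 2.50 ± 0.11, adjusted p = 3e-05). In all 3 the sechellia arrays were several-fold above both simulans arrays. Brighter members of the list that were not called stood closer. FASN1, a fatty acid synthase, read 16773 and 17960.2 in sechellia and 13267 and 14663 in simulans (adjusted p = 0.057). Desat1 read 13167 and 14534 in sechellia and 13794 and 13550.4 in simulans (adjusted p = 0.93). Cyp4g1, the oenocyte decarbonylase, read 19296 and 20492 in sechellia and 22081 and 26041 in simulans (adjusted p = 0.14). The lower members included CG9747, a predicted desaturase, at 495 and 550.1 in sechellia and 1245 and 1259 in simulans (log2 -1.26 ± 0.10, adjusted p = 0.00036), and CG5326, a predicted elongase, at -0.99 ± 0.08.

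Genes of fat use were mixed. Of 23 genes of fatty acid oxidation 5 were higher and 5 lower (43.5% called against 21.1% of all genes, median 0.07). Of 20 genes of fat storage and lipolysis 5 were higher and 4 lower (45% called, median 0.01). Both medians were close to that of all genes. Arc42, an acyl-CoA dehydrogenase, read 4086 and 4049 in sechellia and 782 and 779 in simulans (log2 2.38 ± 0.07, adjusted p = 7e-06), and Had1, a hydroxyacyl-CoA dehydrogenase, was higher by 1.15 ± 0.07. pudgy, listed as pdgy and encoding an acyl-CoA synthetase, read 222 and 357 in sechellia and 2101 and 1826 in simulans (log2 -2.80 ± 0.22, adjusted p = 0.00034). SREBP, the regulator of lipid synthesis, read 1814 and 1879 in sechellia and 958 and 900.5 in simulans, 0.99 ± 0.08 higher, and Gpat4, which starts triglyceride synthesis, was 0.94 ± 0.08 higher. The lipid-droplet perilipin Lsd-2, the brightest of the list, read 9153 and 9592 in sechellia and 9337 and 9688 in simulans (adjusted p = 0.89). With the spread of 8 arrays, 1 gene of oxidation was called each way and no gene of storage, but with that of the 7 arrays 5 and 6 genes of oxidation and 6 and 5 of storage were higher and lower. Mtp, a lipid transfer protein gene that the patterns placed in both lists, is among the lower genes of each.

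Eggshell genes formed the other large group. The vitelline membrane and chorion are secreted by follicle cells in the last stages of egg growth. Of 26 genes that the eggshell pattern took in, 21 were lower in sechellia and none was higher (80.8% called against 21.1% of all genes), with a median of -1.80. The uncalled member Vmat encodes a monoamine transporter and no eggshell protein. The chorion genes Cp15, Cp16, Cp18, Cp19, Cp36 and Cp38 were all lower. Cp36 and Cp38, expressed early among them, read 4517 and 4834 in sechellia and 18057 and 21130.0 in simulans and 6108 and 6643 in sechellia and 18933 and 23733 in simulans. Cp15, Cp16, Cp18 and Cp19, from the later chorion cluster, had differences of -1.97, -2.92, -2.71 and -2.85, and Cp16 read 1139 and 1074 in sechellia and 8666 and 8039 in simulans (log2 -2.92 ± 0.08, adjusted p = 4.6e-06). In each of these genes both sechellia arrays stood below both simulans arrays. The enzymes yellow-g and yellow-g2, which take part in eggshell crosslinking, read 515 and 469 in sechellia and 3926 and 3919 in simulans (log2 -2.997 ± 0.09, adjusted p = 5.8e-06) and 440.3 and 405 in sechellia and 3715 and 4493 in simulans (log2 -3.27 ± 0.11, adjusted p = 1.1e-05).

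Vitelline membrane genes were less even. Vm32E, a late member, read 265 and 215 in sechellia and 2607 and 2472 in simulans (log2 -3.41 ± 0.12, adjusted p = 1.6e-05). Vm34Ca fell by 1.97 ± 0.08. Vm26Aa, the brightest gene of the list, read 15544 and 16901 in sechellia and 22399.5 and 25734 in simulans, a difference of -0.57 that lost its call without sechellia array 1, sechellia array 2 or simulans array 2. Among the uncalled members, the peroxidase gene Pxt read 6220.5 and 6437 in sechellia and 5539 and 5435 in simulans (adjusted p = 0.10) and fs(1)N, a vitelline membrane component needed for embryonic patterning, 2947 and 2960.1 in sechellia and 2612 and 2565 in simulans (adjusted p = 0.12). The count of 21 lower was the same under each of 3 other scalings, with 1 higher after quantile normalisation, and 14 were lower with the spread of 8 arrays, 20 with that of 7.

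Genes of earlier egg development ran in both directions. The 3 genes for yolk proteins, made in fat body and follicle cells, were not called: Yp1 read 19937 and 22775 in sechellia and 21538 and 26239 in simulans (adjusted p = 0.47), Yp2 27479 and 32829.6 in sechellia and 23223 and 30676 in simulans (adjusted p = 0.54) and Yp3 20343 and 25441 in sechellia and 18642 and 20332 in simulans (adjusted p = 0.29). Of 28 maternal axis and germ plasm genes, most but not all of them made in nurse cells and stored in the egg, 6 were higher and 4 lower (35.7% called against 21.1% of all genes, median 0.02). hb, a maternal transcription factor gene, read 5355 and 5345 in sechellia and 3366 and 3162 in simulans (log2 0.71 ± 0.07, adjusted p = 0.0011), and Tl, the receptor of the dorsal-ventral axis, 13457 and 14466 in sechellia and 9211 and 8780.0 in simulans (log2 0.63 ± 0.08, adjusted p = 0.0026). grk, the ligand that signals from oocyte to follicle cells, read 1178 and 1172 in sechellia and 1407 and 1276 in simulans (adjusted p = 0.21). The piRNA pathway, which silences transposons in the ovary, had 1 higher and 3 lower of 25 genes (16% called). The helicase gene armi was the higher one, at 2413 and 2578 in sechellia and 1667 and 1664 in simulans (log2 0.58 ± 0.08, adjusted p = 0.003), and piwi read 2780.4 and 3032 in sechellia and 2642 and 2558 in simulans (adjusted p = 0.24). None of the maternal or piRNA calls held with the spread of 8 arrays; with that of 7, 7 maternal genes were higher and 4 lower, and 2 and 3 piRNA genes. The 17 measured ovary markers summed to 123314 and 139756 in sechellia and 215703 and 245396 in simulans; the 9 markers called lower are all chorion or vitelline membrane genes described above.

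**Figure D3:**
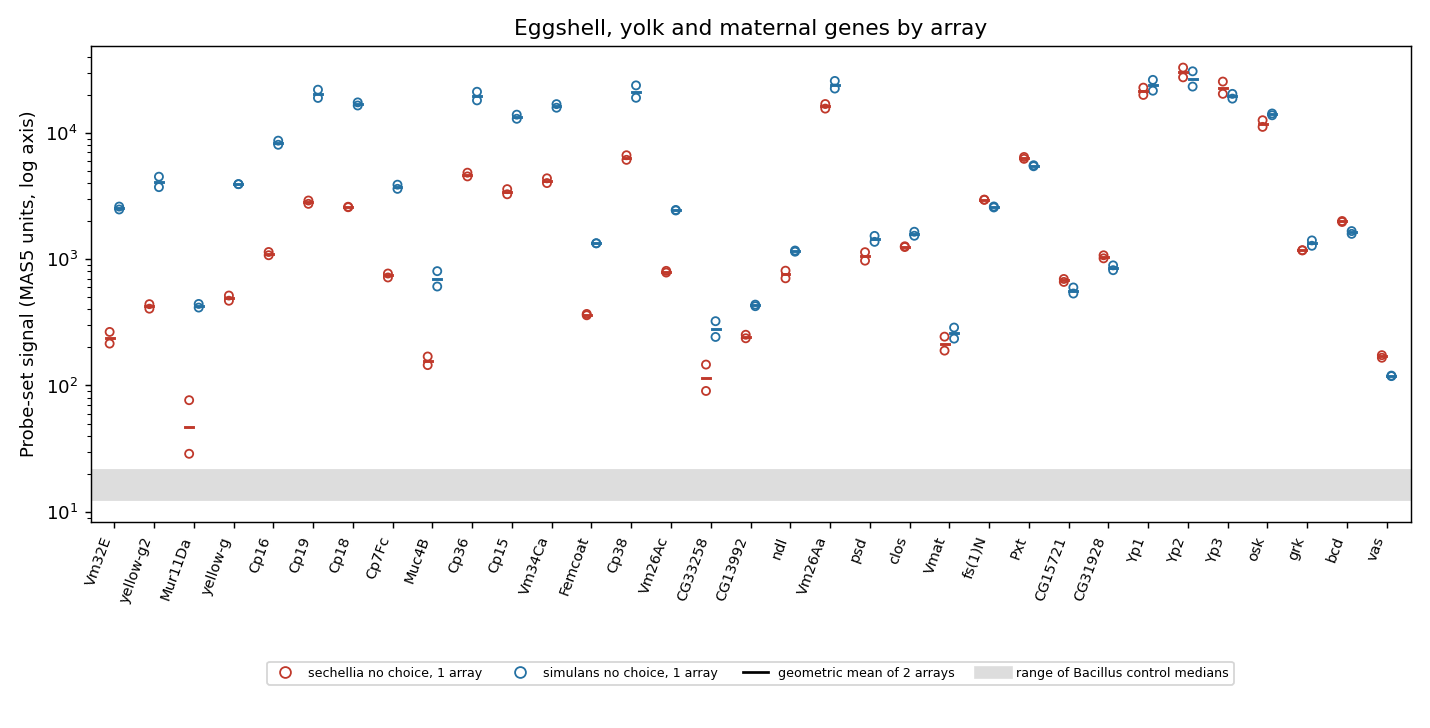
Signal on a log axis for the 26 genes of the eggshell list, ordered from the most negative to the most positive difference, followed by the yolk genes Yp1, Yp2 and Yp3 and the maternal genes osk, grk, bcd and vas; points are single arrays, bars geometric means, and the grey band the range of control medians. Chorion genes such as Cp36 lie lower in sechellia, while the 2 species lie side by side for the yolk genes.

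Among chemosensory families the odorant-binding proteins were called about as often as all genes and the receptors rarely. Of 48 odorant-binding proteins, small secreted carriers of hydrophobic ligands, 4 were higher and 6 lower (20.8% called, median 0.21). Obp99b read 3583 and 3444 in sechellia and 330.0 and 278 in simulans (log2 3.54 ± 0.11, adjusted p = 7e-06). Obp56e read 92.5 and 105 in sechellia and 692 and 675 in simulans (log2 -2.80 ± 0.17, adjusted p = 0.00012). Obp19c differed by log2 -2.69 ± 0.15, adjusted p = 7.1e-05. Its second probe set read 11.5 and 66.0 in sechellia and 33.2 and 51.1 in simulans and was not called (adjusted p = 0.74). Obp18a read 56.2 and 15.4 in sechellia and 694 and 591 in simulans (-4.45 ± 0.57). The difference of Obp18a moves by more than 1.5-fold when either sechellia array is left out. The largest of these are thus spread over both directions. Obp57b, of the gene cluster that holds binding proteins linked to the response of flies to Morinda acids, read 199.5 and 246 in sechellia and 193 and 108 in simulans (adjusted p = 0.26), with simulans arrays far apart. Of the receptors 1 of 57 odorant, 0 of 56 gustatory and 1 of 53 ionotropic receptors were called (1.75%, 0% and 1.89%), and 2, 1 and 2 with the spread of 7 arrays. The median signal of a gene was 49.7, 45.3 and 36.9 in these lists, against 237.5 over all genes. Ir76a read 134 and 134 in sechellia and 272 and 283 in simulans, a call lost without either simulans array, and Or35a was called higher, at 176 and 181 in sechellia and 71.2 and 85.6 in simulans, a call lost without any 1 of the 4 arrays. In the gustatory family Gr22a was the brightest, at 385 and 391.8 in sechellia and 305 and 298 in simulans (adjusted p = 0.12). The part of signal in these counts was not tested.

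Detoxification genes were called in both directions. Cytochrome P450 enzymes oxidise toxins and hormones. Of 89 genes the family pattern took in, 7 were higher and 16 lower (25.8% called against 21.1% of all genes, median -0.18), 6 and 14 of them at least 2-fold. Of the uncalled members, 2, Cyp1 and Cyp40, are cyclophilins. Cyp6g1, known for insecticide resistance, read 570.2 and 783 in sechellia and 4042 and 4061 in simulans (log2 -2.60 ± 0.14, adjusted p = 8.1e-05). Cyp18a1, which inactivates ecdysteroids, read 279 and 314 in sechellia and 678 and 701 in simulans (log2 -1.22 ± 0.12, adjusted p = 0.0011), while its second probe set read 346 and 285 in sechellia and 311 and 356 in simulans (adjusted p = 0.80). Cyp309a2 was higher, at 473 and 389.6 in sechellia and 133 and 67.0 in simulans, a call lost without sechellia array 1. Glutathione transferases conjugate toxins to glutathione, and of 36, 7 were higher and 8 lower (41.7% called, median 0.07), 1 and 6 of them at least 2-fold. GstE6 read 306 and 247 in sechellia and 4681 and 5242 in simulans (log2 -4.17 ± 0.12, adjusted p = 6.8e-06), GstE1 139.8 and 144 in sechellia and 1318 and 1167 in simulans (log2 -3.13 ± 0.13, adjusted p = 2.7e-05) and GstD9 754 and 658 in sechellia and 3036 and 2747 in simulans (log2 -2.04 ± 0.10, adjusted p = 4.8e-05). In those 3 genes both sechellia arrays stood far below both simulans arrays. Among 35 UDP-glycosyltransferases, which attach sugars to toxins, 2 were higher and 4 lower (17.1% called). Ugt35C1 was lower, with 159 and 229 in sechellia and 819 and 784 in simulans. Ugt49B1 was higher, with 879.6 and 754 in sechellia and 420.2 and 436 in simulans. The alpha-esterase cluster split too: alpha-Est7 read 1219 and 1280.0 in sechellia and 664 and 552 in simulans (log2 1.04 ± 0.11, adjusted p = 0.0015), and alpha-Est2, at 30.8 and 42.1 in sechellia and 220.3 and 216 in simulans, was called lower but lost the call without either simulans array. In the carboxylesterase list, 4 of 16 genes were higher and 3 lower (43.8% called against 21.1% of all genes, median 0.40). Of the 4 called higher, Jheh2 is an epoxide hydrolase, and its call held in 1 of the 4 fits without an array. With the spread of 8 arrays, 2 P450 genes were higher and 7 lower, and 1 glutathione transferase was higher and 4 lower; with that of 7 the counts were 9 and 18, and 8 and 8.

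The Osiris family, a gene cluster studied in D. sechellia for its link to resistance to octanoic acid, had a median gene signal of 55.2 in these bodies. Of 23 genes, 3 were lower and none higher (13% called against 21.1% of all genes, median -0.22). Osi6 read 52.4 and 11.8 in sechellia and 284 and 339.9 in simulans and Osi15 81.5 and 30.2 in sechellia and 316 and 314 in simulans, and both calls were lost without either simulans array and moved by more than 1.5-fold without either sechellia array. Osi22, the brightest uncalled member, read 103 and 105 in sechellia and 96.3 and 122.8 in simulans (adjusted p = 0.93). None of the 3 calls held with the spread of 8 arrays, and with that of 7 arrays 5 genes were lower.

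Immune genes differed gene by gene. Of 22 antimicrobial peptide genes, 6 were higher and 8 lower (63.6% called against 21.1% of all genes, median -0.18). Mtk, encoding the antifungal metchnikowin, read 2905 and 3080.3 in sechellia and 408 and 369.7 in simulans (log2 2.95 ± 0.09, adjusted p = 8.1e-06). DptB, a diptericin against Gram-negative bacteria, was also higher, at 265 and 298 in sechellia and 20.2 and 51.6 in simulans, a call lost without either sechellia array and a difference that moved by more than 1.5-fold without either simulans array. Drsl4, of the drosomycin family, read 381 and 394 in sechellia and 4183 and 4486 in simulans (log2 -3.48 ± 0.08, adjusted p = 2.9e-06), and the bomanin gene BomBc3 402 and 483 in sechellia and 2937 and 2389.6 in simulans (log2 -2.59 ± 0.14, adjusted p = 6.2e-05). Large differences in humoral peptides thus ran in both directions. Among 26 recognition genes 4 were called each way (30.8% called). Tep4, a thioester protein, read 3032 and 3101 in sechellia and 964 and 927 in simulans (log2 1.70 ± 0.08, adjusted p = 3.4e-05). PGRP-SB1, a secreted peptidoglycan recognition protein, read 686 and 732 in sechellia and 298 and 254 in simulans (log2 1.37 ± 0.13, adjusted p = 0.00094). PPO1, a prophenoloxidase of melanisation, was at 15.6 and 16.5 in sechellia and 191 and 265 in simulans (log2 -3.81 ± 0.47, adjusted p = 0.0024). No antimicrobial or recognition list count changed under 3 other scalings, and 2 peptides were higher and 3 lower with the spread of 8 arrays, 5 and 8 with that of 7.

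Stress genes were called about as often as all genes, or somewhat more. Of 29 heat shock and chaperone genes 2 were higher and 4 lower (20.7% called), 0 and 7 after median centring, and 5 and 7 after quantile normalisation. mrj, a DnaJ-type chaperone, read 1322 and 1256 in sechellia and 2325 and 2226 in simulans (log2 -0.82 ± 0.08, adjusted p = 0.00082). The Turandot peptide TotC, a secreted product of stress, read 421 and 478 in sechellia and 69.6 and 94.0 in simulans (log2 2.47 ± 0.24, adjusted p = 0.00085), and was the only 1 of 5 Turandot genes called. In redox defence 3 of 18 were higher and 2 lower (27.8%); catalase (Cat) was at 4189 and 4243 in sechellia and 2686 and 2457 in simulans (log2 0.72 ± 0.08, adjusted p = 0.0014) and the extracellular dismutase Sod3 at 960.3 and 1034 in sechellia and 2896 and 2934 in simulans (log2 -1.55 ± 0.08, adjusted p = 5.7e-05).

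Hormone, nutrient and rhythm genes gave scattered differences. Of 49 juvenile hormone and ecdysone genes, 9 were higher and 5 lower (28.6% called against 21.1% of all genes, median 0.14). Jhbp5, of the juvenile hormone-binding takeout family, read 570.0 and 585 in sechellia and 3015 and 2720.4 in simulans (log2 -2.31 ± 0.09, adjusted p = 1.9e-05), and its relative Jhbp11 798 and 649.9 in sechellia and 316 and 257 in simulans (log2 1.34 ± 0.16, adjusted p = 0.0022). Among 18 insulin and nutrient genes, 4 were higher and 2 lower (33.3% called). The gene rictor, for a subunit of the TORC2 kinase complex, read 1150.2 and 1119.8 in sechellia and 654 and 564 in simulans (log2 0.90 ± 0.11, adjusted p = 0.0019). The neuropeptide precursor genes Nplp2 and Nplp3 went opposite ways, Nplp2 at 1549 and 1747 in sechellia and 5299 and 4617 in simulans and Nplp3 at 1535 and 1598 in sechellia and 672 and 676 in simulans. The circadian clock had 4 higher and 2 lower of 15 (40% called). The gene cyc, for a transcriptional activator of the clock, read 1409 and 1374 in sechellia and 409 and 355 in simulans (log2 1.87 ± 0.11, adjusted p = 9.6e-05), and tim, one of the repressors, 1474 and 1428 in sechellia and 598 and 567 in simulans (log2 1.32 ± 0.09, adjusted p = 0.00019). No source used here gives the hour at which the flies were collected. Of 31 dopamine and melanin genes, 5 were lower and none higher (16.1% called against 21.1% of all genes). Among the lower are the eggshell genes yellow-g and yellow-g2 and the prophenoloxidase gene PPO1, all described above.

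The muscle and energy lists held more genes called higher in sechellia than lower, with list medians of 0.03 to 0.19. Of 26 sarcomere genes, 8 were higher and 1 lower (34.6% called against 21.1% of all genes, median 0.10). bent (bt), the muscle protein projectin, read 5152 and 5448 in sechellia and 2188 and 2037 in simulans (log2 1.33 ± 0.08, adjusted p = 0.0001), paramyosin (Prm) 4970.0 and 4607 in sechellia and 2959.9 and 2876 in simulans (log2 0.71 ± 0.08, adjusted p = 0.0013), and flightin (fln), the lower one, 2826 and 3204 in sechellia and 5316 and 4963 in simulans (log2 -0.77 ± 0.09, adjusted p = 0.0018). Muscle markers summed to 64664 and 68198 in sechellia and 58571 and 60689 in simulans. Of 80 genes of oxidative phosphorylation, 13 were higher and 4 lower (median 0.09). The share called, 21.2%, was near the 21.1% of all genes. The count was 28 and 4 after quantile normalisation and 10 and 6 after median centring. One of the 4 lower, mge, encodes a mitochondrial import protein. Cyt-c1, of the cytochrome b-c complex, read 15708 and 16015 in sechellia and 7940.3 and 8876 in simulans (log2 0.92 ± 0.09, adjusted p = 0.00075), and ATPsynC, of the rotor of the ATP synthase, 13422 and 13994 in sechellia and 7981 and 7564 in simulans (log2 0.82 ± 0.08, adjusted p = 0.00077). SdhB, a subunit of succinate dehydrogenase, was lower, at 2522 and 2475 in sechellia and 3516 and 4036 in simulans. In the citric acid cycle list 8 of 26 were higher and 2 lower (38.5% called). The malic enzyme gene Men-b was higher, at 5648 and 6425 in sechellia and 3234 and 3257 in simulans (log2 0.89 ± 0.09, adjusted p = 0.00084). In the glycolysis and trehalose list 7 of 38 were higher and 3 lower (26.3% called against 21.1% of all genes, median 0.03). Of these, Pepck1, of gluconeogenesis, read 3321 and 3585 in sechellia and 1198 and 1377 in simulans (log2 1.43 ± 0.10, adjusted p = 0.00018). The hexokinases of that list split, Hex-A at 0.96 ± 0.08 and Hex-C at -1.004 ± 0.12. With the spread of 8 arrays no gene of oxidative phosphorylation or of the citric acid cycle was called, and 1 sarcomere gene, bt, was; with that of 7 arrays 20 and 6 genes of oxidative phosphorylation, 9 and 2 of the cycle and 9 and 1 sarcomere genes were higher and lower.

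Genes of protein synthesis and turnover differed weakly. Of 41 genes with 1 symbol that the cytoplasmic ribosomal protein pattern took in, 1 was higher and 4 lower (12.2% called against 21.1% of all genes). After quantile normalisation or cyclic loess 9 were lower. The higher gene, RpLP0-like, and the lower genes RpL24-like and RpL7-like are named only as like a ribosomal protein gene. RpL37-1 stood out, at 3825 and 4229 in sechellia and 11521 and 13899 in simulans (log2 -1.65 ± 0.11, adjusted p = 0.00018). Mitochondrial ribosomal protein genes had 5 higher and 13 lower of 71 (25.4% called, 19 lower after median centring). Of these, mRpL27 read 406 and 331 in sechellia and 788 and 742 in simulans (log2 -1.06 ± 0.14, adjusted p = 0.0027). Of 30 aminoacyl-tRNA synthetases, 1 was higher and 4 lower (16.7% called, 7 lower after median centring), GlnRS at 1164 and 1099 in sechellia and 1673 and 1763 in simulans. The proteasome, which degrades ubiquitinated proteins, had 8 higher and 1 lower of 40 (22.5% called, near the share of all genes, median 0.22). Its ATPase Rpt5 read 7098 and 7283 in sechellia and 3414 and 3789 in simulans (log2 0.999 ± 0.08, adjusted p = 0.00041), and the core subunit Prosbeta6 4669.8 and 5048 in sechellia and 2304 and 2294 in simulans (log2 1.08 ± 0.08, adjusted p = 0.00022). With the spread of 8 arrays none of the proteasome calls and 1 of the ribosomal calls, mitochondrial, remained; with that of 7 arrays 8 proteasome genes were higher and 2 lower, and 1 and 5 cytoplasmic and 6 and 13 mitochondrial ribosomal protein genes. In the vacuolar proton pump, Vha100-5 was higher, at 1635 and 1696 in sechellia and 584 and 523 in simulans (log2 1.59 ± 0.10, adjusted p = 0.00012).

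Cuticle genes were mostly uncalled. Of 135, 1 was higher and 11 lower (8.89% called against 21.1% of all genes, median -0.09). The largest differences were in 2 genes that the pattern took in although they encode antigen 5-related secreted proteins: Ag5r read 294 and 287 in sechellia and 2452 and 2343 in simulans (log2 -3.04 ± 0.09, adjusted p = 6.8e-06) and Ag5r2 17.5 and 22 in sechellia and 261 and 355 in simulans (log2 -3.95 ± 0.41, adjusted p = 0.0012). Cht9, a chitinase gene, read 166 and 198 in sechellia and 1377 and 1538 in simulans (log2 -3.003 ± 0.14, adjusted p = 3.5e-05), and TwdlM, of the Tweedle cuticle proteins, 422 and 435 in sechellia and 1115 and 1021 in simulans (log2 -1.32 ± 0.10, adjusted p = 0.00035).

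Among replication and cell cycle genes, 9 of 59 were higher and 8 lower (28.8% called against 21.1% of all genes, median 0.04). cort, an activator of the anaphase-promoting complex in the egg, read 1141 and 1198 in sechellia and 2226 and 2199 in simulans (log2 -0.92 ± 0.08, adjusted p = 0.00047), and gnu, which drives the first embryonic divisions, 2583 and 3080.2 in sechellia and 4857 and 4693 in simulans (log2 -0.76 ± 0.10, adjusted p = 0.0029). Mcm5, a replicative helicase subunit, was at 336 and 318 in sechellia and 703 and 852 in simulans (log2 -1.24 ± 0.13, adjusted p = 0.0014). Chromatin genes held 2 larger differences: the histone demethylase gene Su(var)3-3 read 1188 and 1271 in sechellia and 159 and 147 in simulans (log2 3.01 ± 0.12, adjusted p = 2.7e-05) and the heterochromatin protein gene HP1b 494 and 407 in sechellia and 1679.7 and 1619 in simulans (log2 -1.88 ± 0.12, adjusted p = 0.00014). In the cytoskeleton, the kinesin gene Klp10A read 1018 and 971 in sechellia and 283 and 346 in simulans (log2 1.67 ± 0.13, adjusted p = 0.00037), and betaTub60D, a beta-tubulin, 384 and 423 in sechellia and 1621 and 1473 in simulans (log2 -1.94 ± 0.10, adjusted p = 7e-05). Of haemolymph proteins, the iron carrier Tsf1 read 3139 and 3584 in sechellia and 1196 and 1416 in simulans (log2 1.37 ± 0.11, adjusted p = 0.00041), the larval storage protein gene Lsp2 1484 and 1402 in sechellia and 272 and 287 in simulans (log2 2.37 ± 0.10, adjusted p = 3e-05), and fondue (fon), a clotting protein, 779.7 and 722 in sechellia and 1774 and 1653 in simulans (log2 -1.19 ± 0.09, adjusted p = 0.00032).

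Several of the largest increases lie in genes of no list. drl, a receptor tyrosine kinase gene of the Ryk family, read 4192 and 4123 in sechellia and 127 and 135 in simulans (log2 4.99 ± 0.10, adjusted p = 1.4e-06). CG6733 read 1533 and 1426 in sechellia and 35.7 and 22.4 in simulans (log2 5.71 ± 0.27, adjusted p = 3.7e-05), CG15263 538 and 657 in sechellia and 10.3 and 20.3 in simulans (log2 5.36 ± 0.44, adjusted p = 0.00044) and CG14499 795 and 803 in sechellia and 35.4 and 26.5 in simulans (log2 4.71 ± 0.26, adjusted p = 7.5e-05), with no role given here. All 4 were among the 12 largest increases, dim in simulans and moderate to bright in sechellia. nompB, which encodes a transport protein of sensory cilia, read 1075 and 1048 in sechellia and 44.6 and 102 in simulans (log2 3.98 ± 0.36, adjusted p = 0.00067), and Nazo, an antiviral gene, 714 and 730.5 in sechellia and 34.2 and 9.4 in simulans (log2 5.33 ± 0.59, adjusted p = 0.0015). The differences of nompB and Nazo move by more than 1.5-fold without either simulans array.

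**Figure D4:**
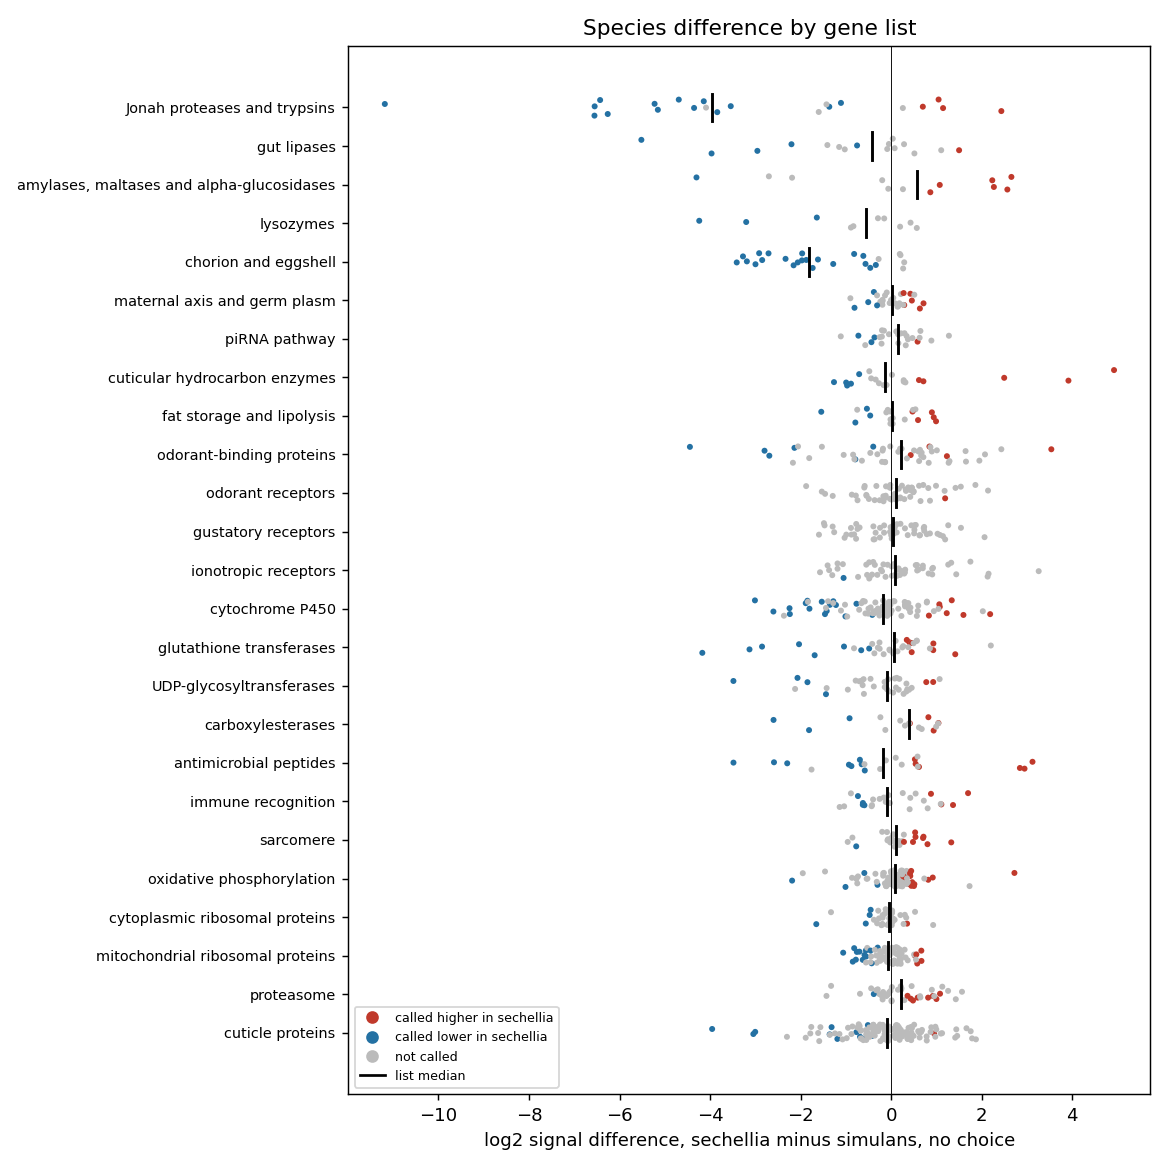
Each point is 1 gene, placed by its log2 difference (sechellia minus simulans, no choice) in 25 of the gene lists; red and blue points were called higher and lower, grey points were not called, and black bars mark list medians. The medians of the proteases (-3.97) and the eggshell genes (-1.80) lie farthest from 0, and most lists centre near it.

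Markers of other tissues were read beside these values. Of 17 listed head and eye markers 8 were measured. Of these, 2 were called higher and none lower, where 21.1% of all genes were called either way. The 8 markers summed to 1098 and 1085 in sechellia and 622 and 531 in simulans, with inaD and trp below background on all arrays. In the longer head and eye list 4 of 25 genes were higher and none lower (16% called). Arr2, the eye arrestin, read 361 and 399 in sechellia and 41.5 and 103 in simulans, a call lost without either sechellia array and a difference that moved by more than 1.5-fold without either simulans array. In the wider neuronal list 3 of 34 were higher and none lower (8.82% called against 21.1% of all genes). Among the higher was Nrg, a cell adhesion gene, at 4571 and 4715 in sechellia and 2274 and 2108 in simulans (log2 1.08 ± 0.08, adjusted p = 0.00023). Of 20 male tract markers 1, djl, was called, with both simulans arrays below background and a difference of at least 1.44-fold. That call was lost without sechellia array 1 or either simulans array. In the longer male reproductive tract list 2 of 70 genes were higher and 2 lower (5.71% called). Fat body markers summed to 7023 and 6488 in sechellia and 7793 and 5156 in simulans. The part of any tissue's amount in the results was not tested.

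The same species were also measured under choice, on arrays that share none with this comparison. Leaving out the sechellia choice array that stood apart, 1 sechellia array was set against 2 simulans arrays. Of the 2532 genes called without choice, 2254 (89%) differed in the same direction under choice, and of 810 called at least 2-fold, 762 did. Among the 9450 uncalled genes 5727 (60.6%) had the same sign. The difference of the differences, no choice minus choice, was called for 2 of 18769 probe sets (0.0107%) with 8 arrays, those of Jon65Aiv and CG2233, and without the odd array for 231 (1.23%), or 195 genes (1.63%), of which 107 were more negative without choice (0.893%) and 88 more positive (0.734%). In that 7-array test sechellia choice is a single array, assumed to vary like the other groups.

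The species difference in eggshell genes was smaller under choice on the arrays that could be compared. In the 7-array test 16 of the 26 genes were more negative without choice and 1 more positive, and the list's median species difference was -1.80 without choice and -0.29 under choice. On the choice arrays Cp36 read 16426.5 on sechellia array 2, against 16884.6 and 16583.0 in simulans, and 6636.9 on the odd array. yellow-g2 read 2670.5 there, against 2889.3 and 2980.2, and 1135.5 on the odd array. The no choice difference in yellow-g2 exceeded that under choice by -3.14 ± 0.16 (limma adjusted p = 0.0001). On sechellia choice array 2 these genes therefore reached values near those of simulans, which the no choice arrays did not. This contrast rests on that single array, and with 8 arrays no eggshell gene was called in it.

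Digestive proteases had a large species difference in both conditions. Their median was -2.50 under choice, and 6 of 22 were more negative without choice and 1, Jon25Biii, more positive (a difference between conditions of 0.96 ± 0.13, adjusted p = 0.013). Jon25Bii differed by -3.54 without and -1.49 with choice (a difference between conditions of -2.05 ± 0.11, adjusted p = 0.0001). The lipase gene CG6295 did so by -3.97 and -1.11 (a difference between conditions of -2.86 ± 0.13, adjusted p = 0.0001). For 3 of the genes highest in sechellia no difference between conditions was called: Fad2 was at 4.92 and 5.97 (adjusted p = 0.22 for the difference) and eloF at 3.92 and 4.46 (adjusted p = 0.68), and Obp99b was at 3.54 and 3.47 (adjusted p = 0.92). Mtk was higher by 2.95 and by 1.84 (a difference between conditions of 1.10 ± 0.13, adjusted p = 0.0072). Jhbp5, lower by 2.31 on the log2 scale without choice, was at 0.12 under choice (a difference between conditions of -2.43 ± 0.13, adjusted p = 0.0001). These values under choice and these tests rest on sechellia choice array 2. With 8 arrays the difference between conditions was not called in Jon25Biii (adjusted p = 0.91), Jon25Bii (0.71), CG6295 (0.51), Mtk (0.71) or Jhbp5 (0.17).

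**Figure D5:**
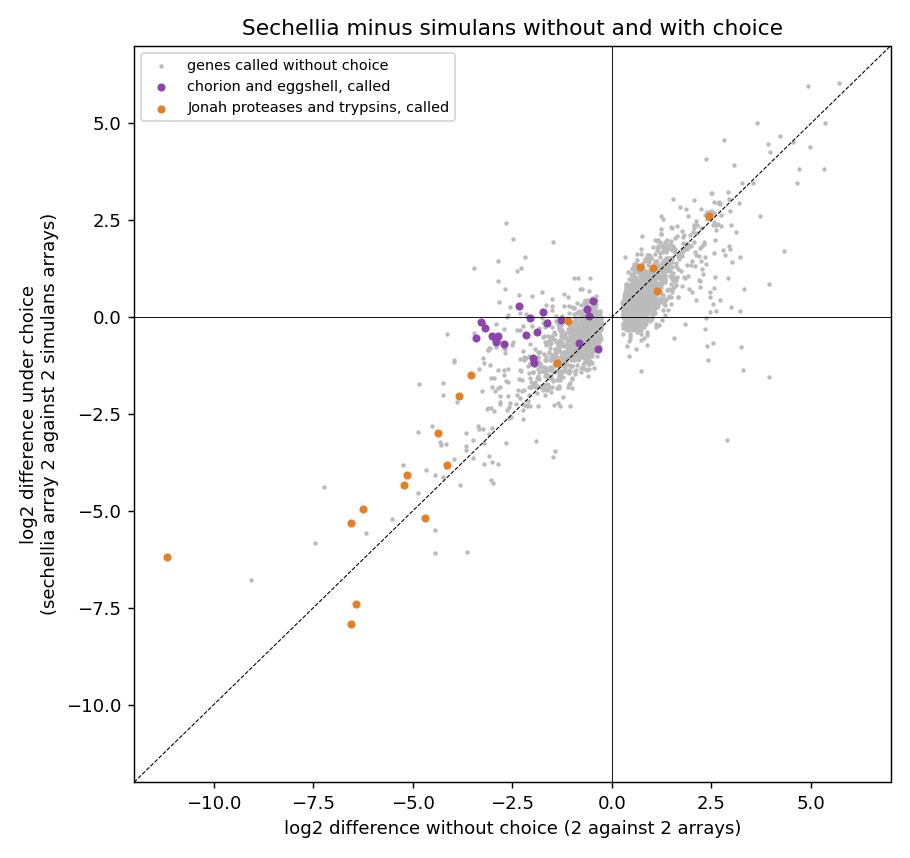
Each point is 1 gene called without choice, by its log2 species difference without choice (horizontal, 2 against 2 arrays) and under choice (vertical, sechellia array 2 against 2 simulans arrays); the dashed line marks equal differences. Most protease genes (orange) stay far below 0 on both axes, while most eggshell genes (purple) lie near 0 on the vertical axis.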

How the data were processed

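RNA from adult female bodies was hybridised to 8 Affymetrix arrays of D. melanogaster probe sets, from 7 micrograms of total RNA per the labels' protocols. The authors deposited linear probe-set intensity; the submitters' processing notes name MAS5, and no source used here gives its version or settings. The deposited intensities share a trimmed mean of 500, so log2 was taken with no further scaling. Of 18952 probe sets, 183 controls were left out. Of the rest, 13647 carried 1 symbol in the platform annotation, 402 several and 4720 none; a gene was read by its brightest probe set with 1 symbol. Of 12314 Entrez identifiers in that annotation, 0 matched the D. sechellia RefSeq table, and positions are left out.

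The 4 no choice arrays were fitted with limma 3.58.1 in R 4.3.3 (lmFit, eBayes with an intensity trend, 2 residual degrees of freedom). The difference between conditions was fitted on 8 arrays, and on 7 without sechellia choice array 1. The number of arrays, 2 per group, limits the precision. Alternatives were another scaling, a dim filter, a pseudocount, signals raised to background, other spread estimates, a replicate block and leaving out each array. A difference with both arrays of the dimmer species below background is a bound, computed from signals raised to each array's control median.

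The 55 gene lists, the markers and the comparison were chosen with earlier results of these data known. Named genes are the 12 largest differences each way, and in each list up to 5 called members with the largest differences and up to 3 uncalled ones with the highest signal, plus markers and up to 5 genes called between conditions. No set test was made.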

Additional observations from a re-analysis of the deposited data

Results flagged for a closer look

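The genes Jon65Aiv and CG2233 were singled out because their species difference itself differed between the conditions. Jon65Aiv, a midgut protease gene, was lower in sechellia by more without choice than under choice. On the deposited signals the contrast was -5.29 ± 0.42 on the log2 scale with 8 arrays (limma adjusted p = 0.0053), and it was also called with 7 (adjusted p = 0.00043). As both sechellia no choice signals lie below background, the size is only a bound: with signals raised to background it was -3.79 ± 0.38 (adjusted p = 0.014). Without choice it read 4.6 and 7.9 in sechellia, both below background there, and 13031 to 15647 on the 4 simulans arrays. Under choice it read 320.4 on sechellia array 1, which stood apart, and 214.2 on array 2. That array 1 had a median signal of 316.7 and a control median of 126.4. CG2233, for which no role is given here, differed by -2.66 ± 0.27 with 8 arrays (adjusted p = 0.026) and -2.55 ± 0.13 with 7 (adjusted p = 0.0001). It read 297.8 and 274.7 in sechellia without choice and 4825 to 5550.1 in simulans. Under choice it read 1834 on sechellia array 1, the odd one, and 1577 on array 2. Leaving out each of the 8 arrays in turn kept the call of Jon65Aiv in 4 fits, losing it without any 1 of the 4 simulans arrays, and that of CG2233 in 2, those without a sechellia choice array. Neither gene was called after quantile normalisation (adjusted p = 0.066 and 0.13), after median centring or without the intensity trend, and CG2233 was not called with the replicate block (adjusted p = 0.058). Groups of 2 arrays allow no test for single arrays that stand apart from their group.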

How the results depend on the processing

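Of the alternatives for the species difference without choice, the dim filter, quantile normalisation, median centring, cyclic loess, signals raised to background, the pseudocount, the spread from 7 arrays and the replicate block kept the number of called probe sets within 1.5 times of 3095, from 3052 to 3562. Taking the spread from 8 arrays gave 508 and dropping the intensity trend gave 0, with 4239 at an unadjusted p below 0.05; leaving out 1 array gave 1754 to 1975. These changes come with the estimate of the spread or with fewer arrays. The difference between conditions, 2 probe sets with 8 arrays, was 231 on 7 arrays without sechellia choice array 1, 0 after median centring, 0 without the trend (920 at an unadjusted p below 0.05) and 1 with the replicate block, and leaving out 1 array gave 0 to 8964, the last without sechellia choice array 2; the cause was not tested. Of 441 named genes 243 were called, and all 243 lost their call without the trend. With the spread from 8 arrays 137 of the 243 lost it, 3 with that from 7, 11 with median centring and 18 with the block. No named gene that was called reversed. Of 243 named genes called, 155 were called in all 4 fits without 1 array. The labels do not say whether same-numbered arrays were paired. Deviations of same-numbered no choice arrays correlated at 0.017 over all probe sets, and the block gave 3113 calls against 3095. These values show no shared deviation but cannot tell how the samples were handled. The 2 arrays a species limit which small differences can be called.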

Other observations

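Genes read by more than 1 probe set gave a measure of how far a signal depends on its probes. Of 1094 such genes, the brightest probe set was called in 249; the second was also called in 68 of these, in the same direction in 50. Across these genes the 2 differences correlated weakly, at Pearson r 0.126, as a description over genes that share arrays. The maternal gene osk, which organises the germ plasm, shows the spread: its brightest probe set read 11138 and 12575 in sechellia and 14220.4 and 13760.5 in simulans and was not called, a second read 9019 and 9748 against 10660.1 and 11609 and was not called, and the remaining one read 1165 and 1080.5 against 5534 and 6268 (log2 -2.39 ± 0.09, limma adjusted p = 1.8e-05). Among probe sets with no symbol, 332 were called, and they are not described here.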
